A study of Homo sapiens with 6 samples.

Results

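The genes described here encode the ligands, receptors, SMAD proteins, extracellular antagonists, latency proteins and target genes of TGF-beta, activin and bone morphogenetic protein (BMP) signalling. The members were chosen by gene symbol from a list of 57 pathway genes, drawn up by role with earlier results of the same arrays known. Of the 57, 56 were read by probe sets that carry exactly 1 gene symbol, out of 18417 named genes in all. BMPR1A, a type I BMP receptor, was named by no such probe set. The 56 genes were read by 61 probe sets, since TGIF1 had 5 and SMAD2 had 2, and 5 of the 61 lay below the array median on all arrays. Because earlier results were known when the list was made, the counts of members below are a description, and no test was made over the list.

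The cells were U2OS, an established human osteosarcoma line, transfected 2 times with siRNA and harvested at day 4. In 1 group both variants H3.X and H3.Y were targeted, the combined knockdown of the text below. In another the siRNA was directed against H3.Y, and the control cells received luciferase siRNA. Both variants are histone H3 proteins of primates. Each of the 3 groups had 2 arrays, labelled as biological replicates. Nothing in the labels describes separate cultures, so the p-values cover only the spread among arrays, which may be technical. Whether the combined knockdown used several siRNAs or a single one against both genes is not in the labels. Both knockdowns were set against the same 2 luciferase arrays, so the comparisons with luciferase are not independent of each other. The comparison between the knockdowns uses the same knockdown arrays again, so a pass in it is not independent of the comparisons with luciferase. No probe set with exactly 1 gene symbol was named for the genes of H3.X or H3.Y, so the depletion of the targets was not analysed here.

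Values are log2 levels per probe set as deposited, and array medians lay between 5.1 and 5.14. Correlations across probe sets were 0.986 to 0.992 between arrays of a group and 0.978 to 0.987 between arrays of different groups, as a description. A probe set was called where the adjusted p of limma's moderated test, with Benjamini-Hochberg adjustment over all 33297 probe sets, was under 0.05. Every adjusted p below comes from that fit, and ± is its standard error for differences. Of the markers of the labelled line, VIM was high, at 10.69 to 10.95 on the 6 arrays, as was SPARC, at 9.94 to 11.55. SPARC was itself called higher in the combined knockdown than after H3.Y siRNA (1.31, adjusted p = 0.0186). COL1A1 lay at 8.33 to 10.73 and SPP1 at 7.42 to 10.38. RUNX2, at 5.05 to 5.89, SP7, at 5.37 to 5.52, COL1A2, at 4.78 to 5.38, and ALPL, at 5.72 to 6.57, lay nearer the array medians. IBSP, a bone sialoprotein gene, lay at 3.05 to 3.36. Of the 8 probe sets of the epithelial markers, 1 lay below the array median on all arrays, and the keratin genes KRT8, at 10.14 to 11.58, and KRT18, at 9.35 to 10.93 over its 2 probe sets, were high in every group. All 4 probe sets of the blood markers and all 6 of the endothelial markers lay below the array median on every array.

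In the TGF-beta and activin branch a ligand binds a type II receptor, which activates a type I receptor, and this phosphorylates SMAD2 and SMAD3. In the BMP branch other receptors of the same family phosphorylate SMAD1, SMAD5 and SMAD9, and both kinds of SMAD enter the nucleus with SMAD4. TGF-beta is secreted in a latent form held in the matrix, antagonists such as noggin and follistatin trap BMPs and activins, and both pathways take part in bone formation and matrix production.

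In the combined knockdown, 7 member probe sets passed the test against luciferase, 6 higher and 1 lower. The 6 that rose were the ligand genes TGFB2, TGFB3 and INHBA, the latency and activation gene THBS1, and the TGF-beta-responsive genes PMEPA1 and SNAI2. The 1 that fell was the BMP ligand gene BMP6. The 7 were 11.5% of the 61 member probe sets, while 1.84% of all 33297 probe sets were called, 0.859% higher and 0.985% lower. After H3.Y siRNA 1 member probe set passed against luciferase, a probe set of SMAD2 that was lower, or 1.64% of member probe sets against 0.279% of all (0.0841% higher and 0.195% lower). Between the combined knockdown and H3.Y siRNA 10 passed, 8 higher and 2 lower in the combined knockdown, or 16.4% of member probe sets against 4.67% of all (2.74% higher and 1.92% lower). At an unadjusted p under 0.05 the member counts were 20 in the combined knockdown, 21 after H3.Y siRNA and 22 between the knockdowns. The share of all probe sets at that unadjusted level was not taken, so these counts do not set the members apart from other genes. These counts rest on 2 arrays per group: without 1 array of the combined knockdown or of luciferase, 0 members were called in the combined knockdown against luciferase, with 1 residual degree of freedom fewer. Without 1 H3.Y array, which is in neither group of that comparison, 7 were called, but BMP6, SNAI2 and TGFB3 were not among them. Between the knockdowns the count fell without either combined knockdown array, without the first H3.Y array and without either luciferase array. It did not fall without the second H3.Y array. In both comparisons the share of all probe sets called fell where the member count fell.

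**Figure D1:**
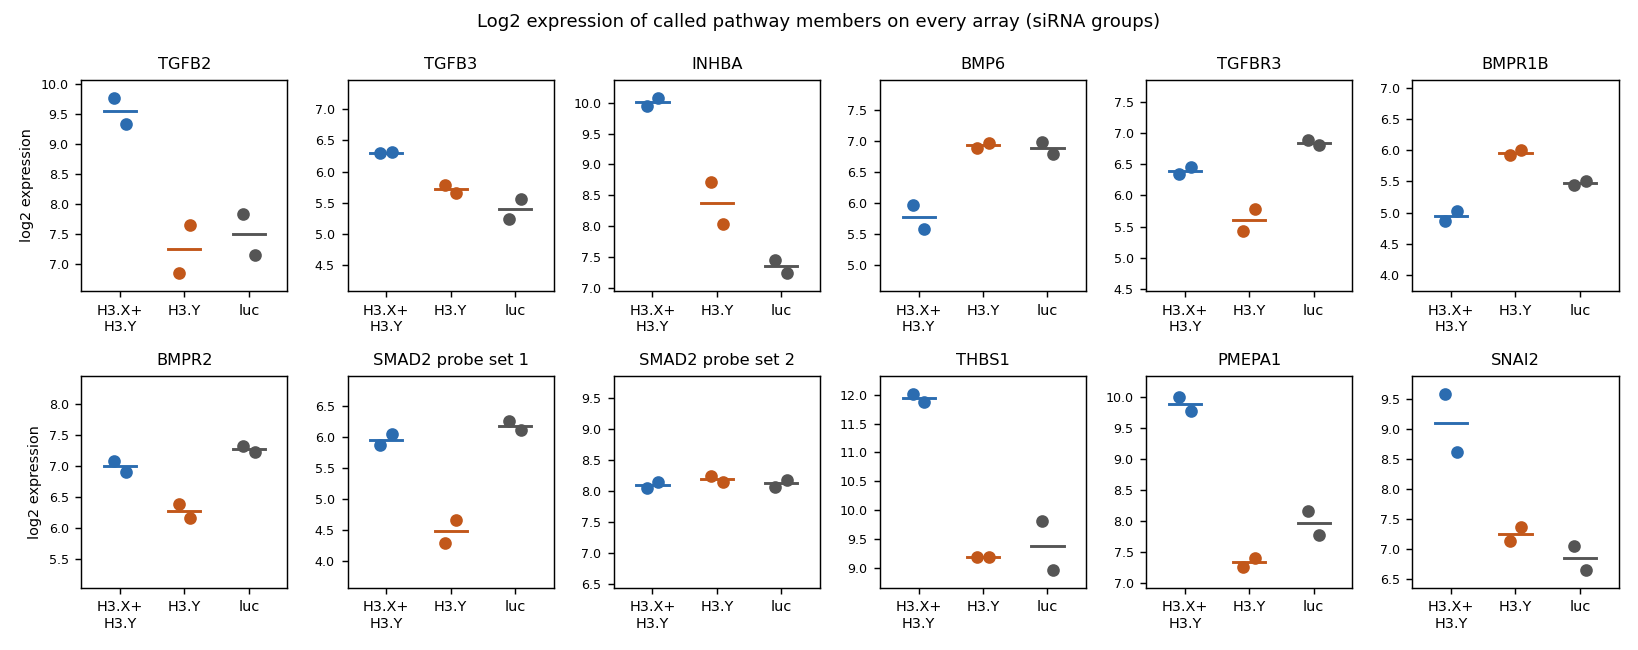
Log2 level of each member probe set called in any comparison and of the second SMAD2 probe set (y axis of each panel) on every array (points, with the group mean as a bar), in columns for the combined knockdown, H3.Y siRNA and luciferase siRNA, 2 arrays each. The combined knockdown points of INHBA, THBS1, PMEPA1, SNAI2 and TGFB2 stand above all the others in their panels, and those of BMP6 and BMPR1B stand below them.

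The promoters of 5 members that changed in the combined knockdown are shown because these genes moved together in 1 group of arrays, 4 upwards and BMP6 downwards. THBS1 and PMEPA1 were taken by the rule for called target and latency genes, and SNAI2 is not shown, since no window was matched to it. INHBA, TGFB2 and BMP6 were added after their values were seen. The called ligand gene TGFB3 is not shown. Each line gives the 250 bases before the annotated start, 5′ to 3′ on the gene's strand, from RefSeq for GRCh38.p14, with capitals marking GTCT or its complement AGAC, the core of the SMAD-binding element, and GGCGCC, a GC-rich motif bound by SMADs.
INHBA promoter, chr7:41703091-41703340, minus strand: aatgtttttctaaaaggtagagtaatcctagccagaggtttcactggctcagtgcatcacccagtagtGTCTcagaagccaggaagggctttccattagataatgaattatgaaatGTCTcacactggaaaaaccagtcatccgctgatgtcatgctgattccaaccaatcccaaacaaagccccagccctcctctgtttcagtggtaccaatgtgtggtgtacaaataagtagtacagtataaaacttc
TGFB2 promoter, chr1:218345086-218345335, plus strand: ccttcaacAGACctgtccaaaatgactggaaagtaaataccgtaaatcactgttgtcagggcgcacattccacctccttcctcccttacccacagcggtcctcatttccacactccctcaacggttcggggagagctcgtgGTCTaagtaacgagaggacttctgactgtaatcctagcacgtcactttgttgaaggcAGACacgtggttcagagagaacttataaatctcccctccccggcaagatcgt
THBS1 promoter, chr15:39580829-39581078, plus strand: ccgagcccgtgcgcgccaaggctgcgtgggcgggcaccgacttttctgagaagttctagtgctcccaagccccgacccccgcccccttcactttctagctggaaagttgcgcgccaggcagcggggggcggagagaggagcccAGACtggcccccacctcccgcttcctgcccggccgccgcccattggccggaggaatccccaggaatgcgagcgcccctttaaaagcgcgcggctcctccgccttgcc
PMEPA1 promoter, chr20:57711473-57711722, minus strand: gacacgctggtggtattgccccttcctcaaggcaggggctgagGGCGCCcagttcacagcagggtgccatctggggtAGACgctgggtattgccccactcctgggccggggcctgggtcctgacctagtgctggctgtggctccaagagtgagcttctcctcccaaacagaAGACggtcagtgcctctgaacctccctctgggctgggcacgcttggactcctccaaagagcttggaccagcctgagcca
BMP6 promoter, chr6:7725849-7726098, plus strand: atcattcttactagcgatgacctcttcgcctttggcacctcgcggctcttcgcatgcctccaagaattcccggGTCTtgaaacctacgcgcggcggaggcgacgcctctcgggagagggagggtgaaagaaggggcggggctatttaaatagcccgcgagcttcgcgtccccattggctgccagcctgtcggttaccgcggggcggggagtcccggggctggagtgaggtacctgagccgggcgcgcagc
GTCT or AGAC was found 2 times before INHBA, 3 times before TGFB2, 1 time before THBS1 and 1 time before BMP6. PMEPA1 has 4 annotated starts, of which the first listed is shown, and the window before each holds 2 matches. At least 1 GTCT or AGAC lay in 77.5% of the 35116 promoter windows of the same length and in 79.5% of the 88 windows of the 48 member genes matched, out of 56, so a match sets few promoters apart. GGCGCC lay in 16.4% of all windows and in 22.7% of member windows. Of the 5 promoters shown only that of PMEPA1 held it, and the windows before the other annotated starts of PMEPA1 did not. The palindrome GTCTAGAC, searched on both strands and overlapping the 2 shorter forms, lay in 0.182% of all windows and in 1 member window, that of SMAD6, but in none of those shown. These are matches of letters, and binding was not measured.

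Among the ligands, 3 of the 7 genes of the TGF-beta and activin branch were called higher in the combined knockdown against luciferase. Of all named genes 1.28% were called higher there. INHBA encodes the subunit that forms activin A. Its log2 levels were 9.95 and 10.07 in the combined knockdown and 8.72 and 8.03 after H3.Y siRNA, against 7.46 and 7.25 with luciferase siRNA. The 3 groups did not overlap, and H3.Y siRNA lay between the other groups. The combined knockdown stood 2.66 ± 0.24 log2 units above luciferase (6.31-fold, adjusted p = 0.0153), the 12th highest difference of all probe sets. Against H3.Y siRNA it was 1.64 ± 0.24 higher (3.11-fold, adjusted p = 0.0206). The difference of H3.Y siRNA from luciferase, 1.02 ± 0.24, did not pass (adjusted p = 0.148), although it did without the second H3.Y array (1.37, adjusted p = 0.0373).

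TGFB2 encodes the TGF-beta 2 ligand, which needs the co-receptor betaglycan for efficient receptor binding. Its log2 levels were 9.77 and 9.34 in the combined knockdown and 6.85 and 7.66 after H3.Y siRNA, against 7.84 and 7.15 with luciferase siRNA. Both combined knockdown arrays lay above the other 4 arrays, while the H3.Y and luciferase arrays overlapped. The combined knockdown was 4.15-fold above luciferase (log2 difference 2.05 ± 0.34, adjusted p = 0.0446) and 4.92-fold above H3.Y siRNA (2.30 ± 0.34, adjusted p = 0.0222). After H3.Y siRNA the log2 difference from luciferase was -0.25 ± 0.34 (adjusted p = 0.825). The call against luciferase was lost with quantile normalization again (adjusted p = 0.0507) and with robust eBayes (adjusted p = 0.0519).

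TGFB3, the gene of the third TGF-beta isoform, stood at 6.29 and 6.32 in the combined knockdown and 5.78 and 5.65 after H3.Y siRNA, against 5.23 and 5.55 with luciferase siRNA. The 3 groups did not overlap. The rise over luciferase was 1.88-fold (0.91 ± 0.15, adjusted p = 0.0463). The difference between the knockdowns, 0.59 ± 0.15, did not pass (adjusted p = 0.0939) except with a filter on low values (adjusted p = 0.0499). The call against luciferase was lost with median centring (adjusted p = 0.0529) and in a fit on only the 4 arrays compared (adjusted p = 0.0574). TGFB1, the gene of the founding isoform, had log2 levels of 8.06 and 8.06 in the combined knockdown and 8.56 and 8.19 after H3.Y siRNA, against 8.28 and 8.07 with luciferase siRNA, and was not called in any comparison. The activin and inhibin subunit genes INHBB and INHBE and the gene of the embryonic ligand NODAL were not called either, with log2 differences from -0.16 to 0.17 over the 3 comparisons.

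Of the 7 BMP-branch ligand genes, BMP6 was called in the fit on all 6 arrays and the other 6 were not. Of all named genes 1.34% were called lower in the combined knockdown against luciferase and 2.68% against H3.Y siRNA. BMP6, a ligand made in bone and in the iron-sensing cells of the liver, stood at 5.97 and 5.58 in the combined knockdown and 6.89 and 6.96 after H3.Y siRNA, against 6.98 and 6.78 with luciferase siRNA. Both combined knockdown arrays lay below the other 4. It was 2.16-fold lower than with luciferase siRNA (log2 difference -1.11 ± 0.17, adjusted p = 0.0388) and 2.22-fold lower than after H3.Y siRNA (-1.15 ± 0.17, adjusted p = 0.0235). In fits on only the 4 arrays compared both calls were lost (adjusted p = 0.0557 and 0.0591).

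BMP5 had wider spread than the other ligands. It was at 7.99 and 8.37 in the combined knockdown, at 4.23 and 6.31 after H3.Y siRNA, and at 6.13 and 6.43 with luciferase siRNA. The combined knockdown arrays lay above all the others, but the pair of H3.Y arrays differed by more than 2 log2 units, and neither 1.90 ± 0.61 over luciferase (adjusted p = 0.205) nor 2.91 ± 0.61 over H3.Y siRNA (adjusted p = 0.0517) passed. BMP5 did pass against luciferase in the fit on only the 4 arrays compared (adjusted p = 0.031), and against H3.Y siRNA with median centring, an intensity trend, a filter on low values, or without either H3.Y array (adjusted p = 0.0106 to 0.0497). Without the second H3.Y array it was also called lower after H3.Y siRNA than with luciferase siRNA (-2.05, adjusted p = 0.0327). BMP4, which like BMP2 drives osteoblast differentiation, was at 7.52 and 8.18 in the combined knockdown and 5.69 and 6.83 after H3.Y siRNA, against 6.80 and 7.23 with luciferase siRNA, with adjusted p of 0.414 against luciferase and 0.0881 between the knockdowns, where it passed under the filter (adjusted p = 0.0486) and without the second H3.Y array (2.17, adjusted p = 0.0367). BMP2 went the other way between the knockdowns, with 6.73 and 6.86 in the combined knockdown and 7.80 and 7.18 after H3.Y siRNA, against 6.31 and 6.23 with luciferase siRNA. Both knockdowns lay above luciferase without overlap, by 0.52 ± 0.22 (adjusted p = 0.324) and 1.22 ± 0.22 (adjusted p = 0.0919), and neither passed. After H3.Y siRNA BMP2 passed under the filter (adjusted p = 0.0489) and without the second H3.Y array (1.53, adjusted p = 0.0287), and without that array it was also called lower in the combined knockdown than after H3.Y siRNA (-1.01, adjusted p = 0.0339). BMP7, GDF5 and GDF6 were not called.

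In the fit on all 6 arrays no receptor gene passed against luciferase in either knockdown, and 3 of the 10 passed between the knockdowns, where 4.67% of all probe sets were called. TGFBR3 encodes betaglycan, the co-receptor that presents TGF-beta 2. It stood at 6.34 and 6.46 in the combined knockdown and 5.43 and 5.78 after H3.Y siRNA, against 6.89 and 6.81 with luciferase siRNA. The groups did not overlap, with H3.Y siRNA lowest and luciferase highest. The combined knockdown was 0.79 ± 0.16 log2 units above H3.Y siRNA (1.73-fold, adjusted p = 0.0476). The difference of H3.Y siRNA from luciferase, -1.25 ± 0.16, did not pass (adjusted p = 0.051), nor did that of the combined knockdown, -0.45 ± 0.16 (adjusted p = 0.246). The H3.Y difference passed with median centring, robust eBayes, an intensity trend, the filter or without the second H3.Y array (adjusted p = 0.0252 to 0.0467). The call between the knockdowns was lost with only the 4 arrays compared (adjusted p = 0.0999).

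BMPR2, the type II receptor of BMPs, showed the same order, at 7.09 and 6.91 in the combined knockdown and 6.39 and 6.16 after H3.Y siRNA, against 7.33 and 7.23 with luciferase siRNA. It was 0.72 ± 0.15 higher in the combined knockdown than after H3.Y siRNA (1.65-fold, adjusted p = 0.0498), a call that was lost when arrays were median-centred (adjusted p = 0.053) or quantile-normalized again (adjusted p = 0.0536). The H3.Y difference from luciferase was -1.0 ± 0.15 (adjusted p = 0.0677), and passed with an intensity trend (adjusted p = 0.0463) and under the filter (adjusted p = 0.0347). BMPR1B, a type I BMP receptor of cartilage and bone, had another order, at 4.87 and 5.03 in the combined knockdown and 5.93 and 6.0 after H3.Y siRNA, against 5.44 and 5.50 with luciferase siRNA. It was 2.02-fold lower in the combined knockdown than after H3.Y siRNA (-1.01 ± 0.13, adjusted p = 0.0163), with luciferase between them at differences of -0.52 ± 0.13 for the combined knockdown (adjusted p = 0.128) and 0.50 ± 0.13 for H3.Y siRNA (adjusted p = 0.182).

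The signalling receptors of the TGF-beta branch differed by between -0.29 and 0.55 between the knockdowns, less than the 3 called receptors. Against luciferase their differences were not all smaller. TGFBR2, the type II receptor that binds TGF-beta, was at 9.93 and 9.85 in the combined knockdown and 9.42 and 9.28 after H3.Y siRNA, against 9.36 and 9.20 with luciferase siRNA, and 0.61 ± 0.14 over luciferase did not pass (adjusted p = 0.0956) except with an intensity trend (adjusted p = 0.0494) and under the filter (adjusted p = 0.0475). Between the knockdowns TGFBR2 differed by 0.55 ± 0.14 (adjusted p = 0.0864) and passed in the same settings (adjusted p = 0.0464 and 0.0446). TGFBR1, its type I partner, differed from luciferase by -0.06 in the combined knockdown and 0.23 after H3.Y siRNA. ACVR1B, a type I receptor for activin, was 0.55 ± 0.17 above luciferase in the combined knockdown and 0.67 ± 0.17 above it after H3.Y siRNA, with neither called (adjusted p = 0.189 and 0.168). ACVR1, ACVR2A, ACVR2B and the co-receptor gene ENG were not called in the fit on all 6 arrays. ACVR1 was 0.68 ± 0.17 above luciferase in the combined knockdown (adjusted p = 0.116), the highest receptor difference there. ACVR2A was 0.88 ± 0.21 higher in the combined knockdown than after H3.Y siRNA (adjusted p = 0.0752), the highest receptor difference between the knockdowns.

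The SMAD2 gene, which encodes a receptor-activated SMAD of the TGF-beta branch, was read by 2 probe sets that gave different results. Probe set 8023191 stood at 5.86 and 6.04 in the combined knockdown and 4.29 and 4.66 after H3.Y siRNA, against 6.25 and 6.10 with luciferase siRNA. The H3.Y arrays lay below the other 4. This probe set was 3.25-fold lower after H3.Y siRNA than with luciferase siRNA (-1.70 ± 0.17, adjusted p = 0.0342), the 37th lowest difference of all probe sets. The call was lost without any 1 of the arrays except the second H3.Y array, at differences of -1.77 to -1.52 and adjusted p of 0.104 to 0.294. It was 2.78-fold higher in the combined knockdown than after H3.Y siRNA (1.48 ± 0.17, adjusted p = 0.0122), and differed by -0.22 ± 0.17 between the combined knockdown and luciferase (adjusted p = 0.667). Probe set 8023195 stood at 8.05 and 8.15 in the combined knockdown and 8.24 and 8.14 after H3.Y siRNA, against 8.07 and 8.18 with luciferase siRNA. All 3 groups overlapped in it, and its H3.Y difference of 0.07 lay within a 95% interval from -0.25 to 0.38 (adjusted p = 0.886). Which part of the transcript each probe set reads is not given in the sources used here, so the level of SMAD2 after H3.Y siRNA cannot be stated from these arrays.

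The other 7 SMAD genes had 0 calls in the 3 comparisons. SMAD3, the other TGF-beta-branch effector, ranged from 8.09 to 8.80 over the 6 arrays, and SMAD4, the shared partner, from 7.92 to 8.30. The BMP effectors SMAD1, SMAD5 and SMAD9 and the BMP-branch inhibitor SMAD6 all differed from luciferase by between -0.48 and -0.15 in the combined knockdown, without a call. SMAD7, the feedback inhibitor of the receptors, was 0.42 ± 0.16 above luciferase in the combined knockdown (adjusted p = 0.281). The ubiquitin ligase genes SMURF1 and SMURF2, whose products degrade SMADs and receptors, were not called, and the difference farthest from 0 was -0.43 for SMURF2 after H3.Y siRNA.

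**Figure D2:**
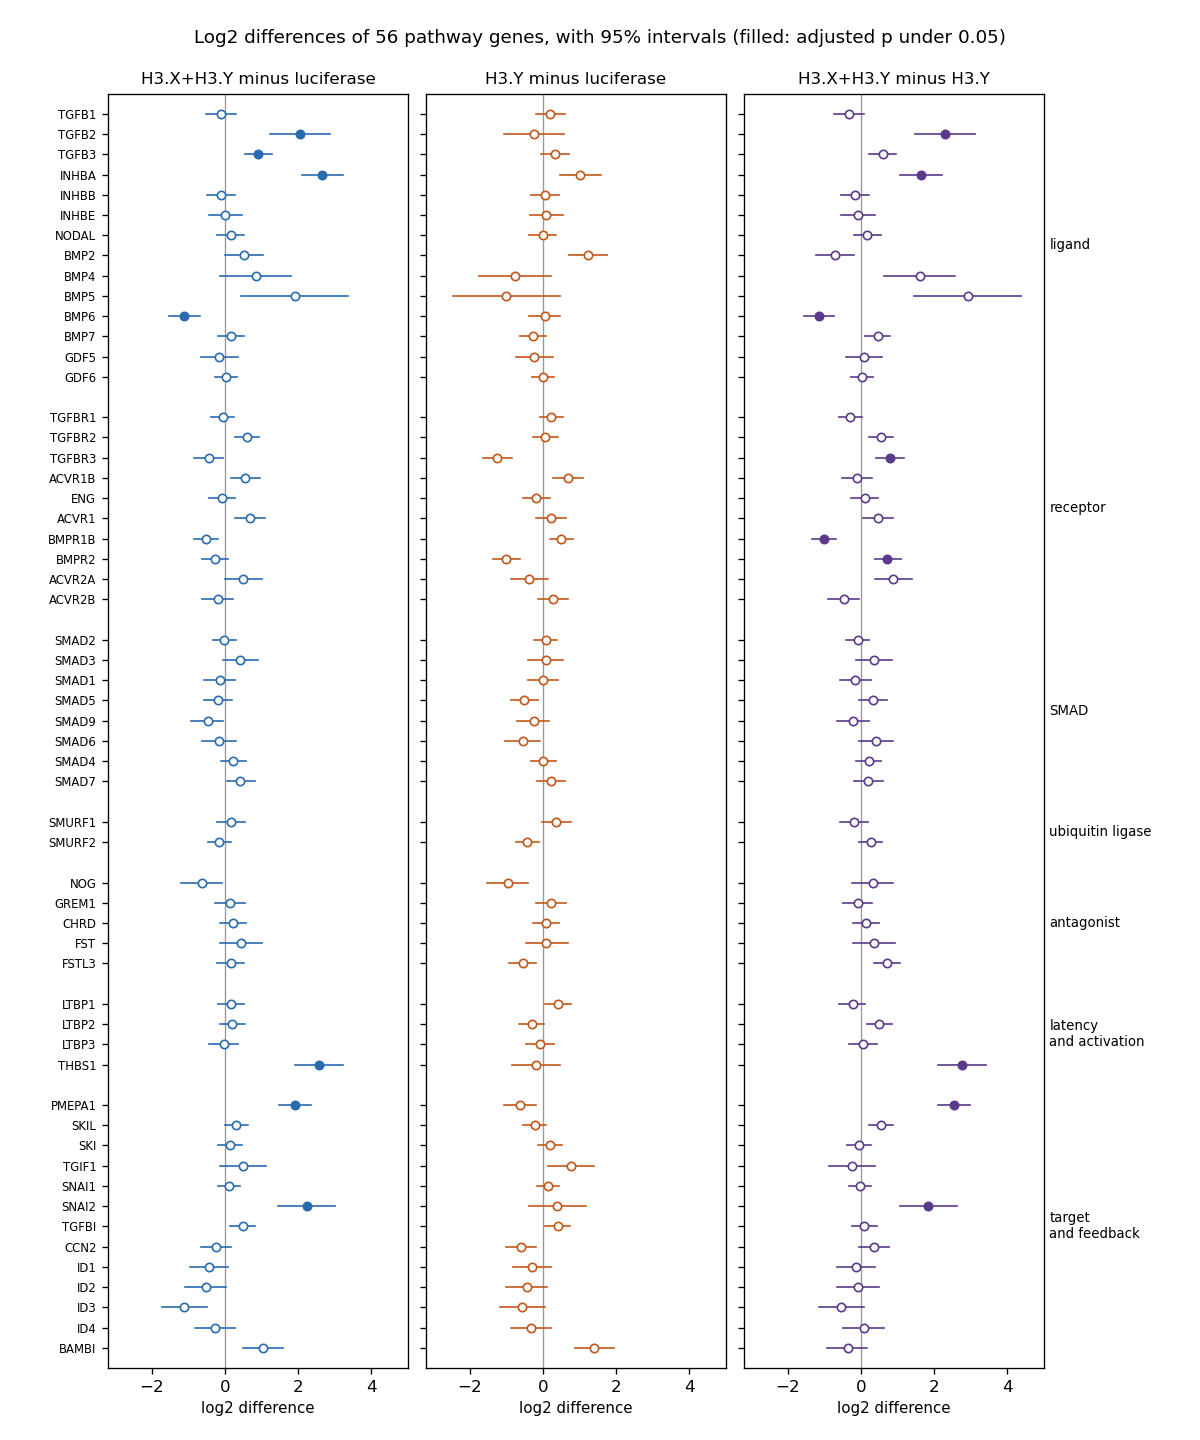
Log2 difference (x axis, points) with its 95% interval (bars) for each of the 56 genes in rows by class, 1 probe set per gene, in panels for the combined knockdown against luciferase, H3.Y siRNA against luciferase, and the combined knockdown against H3.Y siRNA. Filled points passed the test. In the left panel the filled points of INHBA, THBS1, SNAI2, TGFB2 and PMEPA1 lie between 1.91 and 2.66, and all SMAD points, with SMAD2 by probe set 8023195, lie between -0.48 and 0.42.

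None of the 5 antagonist genes was called. NOG encodes noggin, which traps BMPs outside the cell, and gave the farthest difference from 0 of the class. It stood at 8.36 and 8.60 in the combined knockdown and 7.95 and 8.36 after H3.Y siRNA, against 9.38 and 8.86 with luciferase siRNA. Both knockdowns lay below luciferase without overlap, by -0.64 ± 0.23 (adjusted p = 0.257) and -0.96 ± 0.23 (adjusted p = 0.157). FSTL3, a follistatin-like activin trap, was at 7.34 and 7.26 in the combined knockdown and 6.60 and 6.57 after H3.Y siRNA, against 7.30 and 6.99 with luciferase siRNA. Its 0.71 ± 0.15 between the knockdowns did not pass (adjusted p = 0.0543) except with an intensity trend (adjusted p = 0.0397), under the filter (adjusted p = 0.027) and with a replicate block (adjusted p = 0.0497). FST, GREM1 and CHRD differed by between -0.09 and 0.44 over the 3 comparisons.

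Among the latency and activation genes THBS1 stood apart from the 3 latent TGF-beta binding protein genes. THBS1 encodes thrombospondin-1, a matrix glycoprotein that can release TGF-beta from its latent complex and is itself induced by TGF-beta. Its log2 levels were 12.02 and 11.87 in the combined knockdown and 9.18 and 9.19 after H3.Y siRNA, against 9.80 and 8.95 with luciferase siRNA. Both combined knockdown arrays lay more than 2 log2 units above each of the other 4 arrays, and the luciferase pair enclosed the H3.Y pair. THBS1 was 5.95-fold higher than with luciferase siRNA (2.57 ± 0.27, adjusted p = 0.0179) and 6.79-fold higher than after H3.Y siRNA (2.76 ± 0.27, adjusted p = 0.0081), the 14th and the 19th highest differences of all probe sets. LTBP1, LTBP2 and LTBP3, whose products anchor latent TGF-beta in the matrix, were not called, with differences from luciferase between -0.04 and 0.19 in the combined knockdown and between -0.31 and 0.40 after H3.Y siRNA.

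Of the 8 target and feedback genes of the TGF-beta branch, 2 were called higher in the combined knockdown against luciferase. Of all named genes 1.28% were called higher there. PMEPA1, a TGF-beta-induced membrane protein that restrains SMAD activation, stood at 9.99 and 9.77 in the combined knockdown and 7.27 and 7.40 after H3.Y siRNA, against 8.17 and 7.77 with luciferase siRNA. The groups did not overlap, with the H3.Y arrays lowest. It was 3.76-fold above luciferase (1.91 ± 0.18, adjusted p = 0.0155) and 5.82-fold above H3.Y siRNA (2.54 ± 0.18, adjusted p = 0.00507, the lowest adjusted p of any member). After H3.Y siRNA its difference from luciferase, -0.63 ± 0.18, did not pass (adjusted p = 0.203).

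SNAI2 encodes Slug, a repressor of epithelial genes. It was at 9.57 and 8.61 in the combined knockdown and 7.14 and 7.37 after H3.Y siRNA, against 7.05 and 6.66 with luciferase siRNA. The groups did not overlap, although the pair of combined knockdown arrays differed from each other by nearly 1 log2 unit. The rise was 4.70-fold over luciferase (2.23 ± 0.32, adjusted p = 0.0309) and 3.58-fold over H3.Y siRNA (1.84 ± 0.32, adjusted p = 0.0324). In fits on only the 4 arrays compared both calls were lost (adjusted p = 0.0536 and 0.0712). SNAI1, the gene of the related repressor Snail, differed from luciferase by 0.11 in the combined knockdown and 0.13 after H3.Y siRNA.

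The remaining targets of the TGF-beta branch were not called. CCN2, listed under its older symbol CTGF and encoding a connective tissue growth factor, was at 9.15 and 9.38 in the combined knockdown and 8.82 and 9.02 after H3.Y siRNA, against 9.66 and 9.36 with luciferase siRNA. It lay below luciferase by -0.25 in the combined knockdown and by -0.59 after H3.Y siRNA, without a call. TGFBI, a matrix protein named for its induction by TGF-beta, was 0.48 ± 0.14 above luciferase in the combined knockdown (adjusted p = 0.177). The corepressor genes SKI and SKIL differed by 0.13 and 0.31 there. The 5 probe sets of the corepressor gene TGIF1, 4 of them with nearly the same readings, differed from luciferase by between 0.19 and 0.50 in the combined knockdown and between 0.41 and 0.76 after H3.Y siRNA, and the first H3.Y array was the highest of the 6 in all 5. Without the second H3.Y array, 2 of the 5 were called higher after H3.Y siRNA (1.15 and 1.11, adjusted p = 0.0495 and 0.0498).

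The BMP-branch targets ID1 to ID4 encode inhibitors of helix-loop-helix transcription factors and are common readouts of BMP signalling. None of the 4 was called in the fit on all 6 arrays, and all 4 lay below luciferase on average in both knockdowns, also under both other scalings and without any 1 of the arrays. ID3 had the farthest difference from 0, at 7.27 and 7.19 in the combined knockdown and 7.39 and 8.15 after H3.Y siRNA, against 8.45 and 8.24 with luciferase siRNA. All 4 knockdown arrays lay below both luciferase arrays, with -1.12 ± 0.25 in the combined knockdown (adjusted p = 0.0982) and -0.57 ± 0.25 after H3.Y siRNA (adjusted p = 0.393). ID3 was called lower in the combined knockdown against luciferase in the fit on only the 4 arrays compared and without either H3.Y array (adjusted p = 0.0361). ID1, ID2 and ID4 differed from luciferase by -0.43, -0.53 and -0.27 in the combined knockdown and by -0.30, -0.45 and -0.34 after H3.Y siRNA. BAMBI, a pseudoreceptor that dampens both branches, was at 7.71 and 7.45 in the combined knockdown and 8.26 and 7.65 after H3.Y siRNA, against 6.65 and 6.45 with luciferase siRNA. Both knockdowns lay above luciferase without overlap, by 1.03 ± 0.23 (adjusted p = 0.0903) and 1.40 ± 0.23 (adjusted p = 0.0788), and neither passed. BAMBI did pass in the combined knockdown with only the 4 arrays compared, under the filter or without either H3.Y array (adjusted p = 0.0469 to 0.0492), and after H3.Y siRNA under the filter (adjusted p = 0.0417) or without the second H3.Y array (1.7, adjusted p = 0.0317).

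By branch, with 1 probe set per gene, 6 of the 28 TGF-beta and activin genes were called higher and 0 lower in the combined knockdown against luciferase, while of the 21 BMP-branch genes 0 were called higher and 1 lower. Of all 18417 named genes 1.28% were called higher and 1.34% lower there. The median log2 difference was 0.18 for the TGF-beta branch, with 19 genes above 0, and -0.16 for the BMP branch, with 8 above 0, beside 0.01 over all 18417 named genes. Without any 1 of the arrays the BMP median there ranged from -0.22 to -0.09 and the TGF-beta median from 0.15 to 0.30. After H3.Y siRNA the medians were 0.07 and -0.27, with 0 genes called in either branch on the probe sets used, where 0.103% of all named genes were called higher and 0.261% lower. Without the second luciferase array the TGF-beta median after H3.Y siRNA turned to -0.06, and the BMP median was -0.11 without the first and -0.43 without the second H3.Y array. Between the knockdowns the medians were 0.26 and 0.07, with 6 TGF-beta genes called higher, and in the BMP branch BMPR2 higher and BMP6 and BMPR1B lower, beside 4.05% of all named genes called higher and 2.68% lower. The order of those medians turned without the second H3.Y array, at 0.10 for the TGF-beta and 0.21 for the BMP branch, and without the first combined knockdown array they were 0.10 and 0.07. The 7 genes shared by both branches had medians of 0.22 in the combined knockdown and 0.23 after H3.Y siRNA, with 0 calls. The branches were not tested against each other, and the ligand, receptor and SMAD classes hold genes of both.

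**Figure D3:**
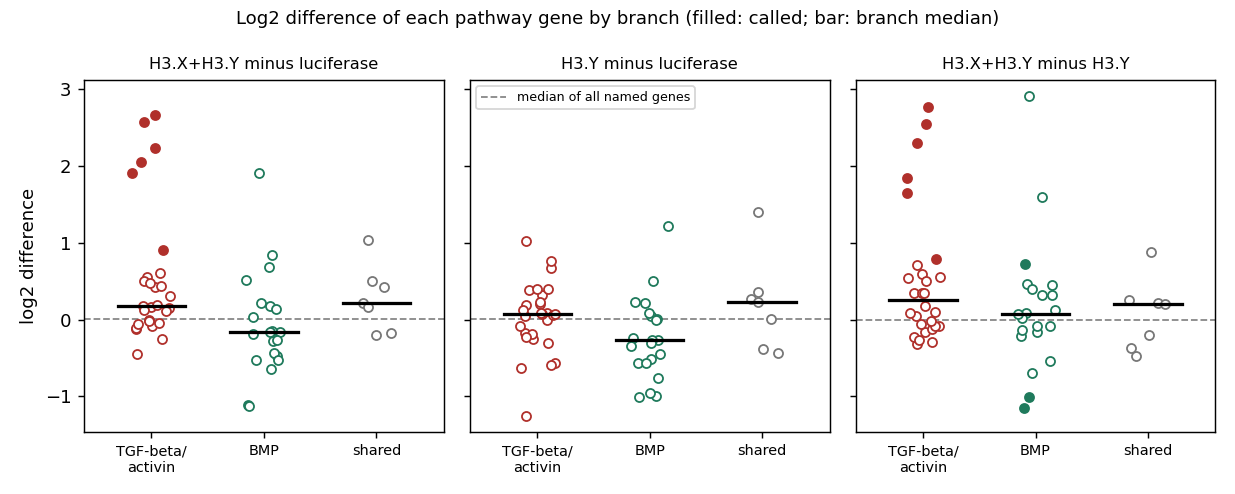
Log2 difference of each of the 56 genes (points, 1 probe set per gene) by branch, in panels for the combined knockdown against luciferase, H3.Y siRNA against luciferase, and the combined knockdown against H3.Y siRNA. Filled points passed the test, bars are branch medians and the dashed line is the median of all named genes. In the left panel the 6 filled TGF-beta-branch points lie between 0.91 and 2.66, and the filled BMP-branch point lies at -1.11.

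Another 87 genes of the pathways were listed by role, of which 82 were read. In the combined knockdown 4 of them rose against luciferase and 2 fell, beside the 1.28% and 1.34% of all named genes. ITGB8 encodes the beta subunit of an integrin that activates latent TGF-beta, and was at 6.69 and 6.54 in the combined knockdown and 4.68 and 4.16 after H3.Y siRNA, against 4.96 and 5.17 with luciferase siRNA. Its combined knockdown arrays lay above all the others, 2.93-fold over luciferase (1.55 ± 0.20, adjusted p = 0.0257) and 4.57-fold over H3.Y siRNA (2.19 ± 0.20, adjusted p = 0.00734). NRP1, a co-receptor of several growth factors that also binds TGF-beta, was at 8.98 and 8.82 in the combined knockdown and 8.05 and 8.21 after H3.Y siRNA, against 7.38 and 7.63 with luciferase siRNA, and passed against both (1.40 and 0.77, adjusted p = 0.0191 and 0.0473). The LIM domain gene LMCD1 also passed against both (1.36 and 1.03, adjusted p = 0.0255 and 0.0301). CDKN1A, the gene of the cell cycle inhibitor p21, which p53 also induces, passed against luciferase (1.03, adjusted p = 0.0400).

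The 2 that fell were CHRDL1, a chordin-like BMP antagonist, and STRAP, a protein that binds TGF-beta receptors and SMAD7. CHRDL1 was at 4.61 and 4.32 in the combined knockdown and 5.13 and 5.20 after H3.Y siRNA, against 5.81 and 6.06 with luciferase siRNA, a difference of -1.48 ± 0.16 in the combined knockdown (adjusted p = 0.0191). STRAP was lower in the combined knockdown than with luciferase siRNA (-1.06 ± 0.14, adjusted p = 0.0255) and than after H3.Y siRNA (-0.93 ± 0.14, adjusted p = 0.0218). With 1 probe set per gene, 4 of the 82 were called higher and 2 lower between the knockdowns, beside 4.05% and 2.68% of all named genes. Among them FBN2, a fibrillin of the matrix, was higher in the combined knockdown (0.73, adjusted p = 0.0484). The BMP- and Notch-responsive repressor gene HEY1 was lower there (-1.60, adjusted p = 0.0160). FKBP1A, whose product binds type I receptors, was lower by its probe set of lower level (-1.04, adjusted p = 0.0233), and its other probe set did not pass (-0.97, adjusted p = 0.0544). After H3.Y siRNA 0 of the 82 were called against luciferase, beside 0.103% of all named genes called higher and 0.261% lower. The median of the 82 was 0.07 in the combined knockdown and 0.10 after H3.Y siRNA.

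**Figure D4:**
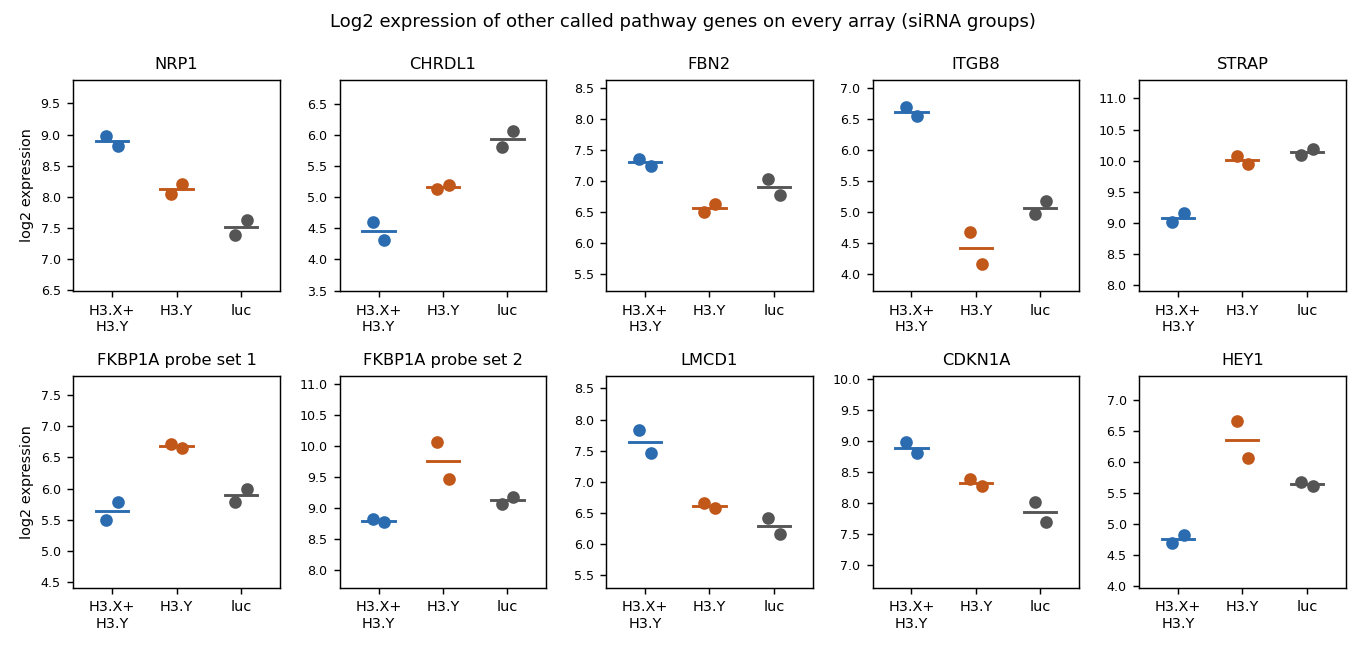
Log2 level on every array (points) of the 9 other pathway genes with a called probe set, with the group mean as a bar, in columns for the combined knockdown, H3.Y siRNA and luciferase siRNA. ITGB8, NRP1 and LMCD1 are highest in the combined knockdown, and CHRDL1, STRAP and HEY1 are lowest there.

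Among the epithelial markers EPCAM moved farthest with the combined knockdown, beside the changes above. The summed log2 level of the 8 probe sets of the 6 epithelial markers was 63.9 and 63.4 in the combined knockdown and 51.5 and 54.3 after H3.Y siRNA, against 57.3 and 55.9 with luciferase siRNA, with EPCAM counted by both of its probe sets. EPCAM, an epithelial adhesion gene, stood at 7.41 and 7.21 in the combined knockdown and 4.65 and 5.05 after H3.Y siRNA, against 4.97 and 5.14 with luciferase siRNA, by its probe set of higher mean. All 6 markers lay above luciferase on average in the combined knockdown. Of the 6 markers, EPCAM was called higher there against luciferase (2.25, adjusted p = 0.0129), and EPCAM and CLDN4 against H3.Y siRNA. CLDN4 and KRT8 stood above luciferase in the combined knockdown without overlap, by 0.70 and 0.46, and did not pass (adjusted p = 0.111 and 0.505). The log2 differences of KRT18 and KRT19 from luciferase in the combined knockdown were 0.08 or less for both KRT18 probe sets and 0.22 for KRT19, without a call. COL1A1, a collagen gene of the osteosarcoma list, was also called higher in the combined knockdown, at 10.73 and 10.42 there and 8.33 and 8.62 after H3.Y siRNA, against 9.06 and 8.93 with luciferase siRNA. CDH1, which encodes the E-cadherin of epithelial junctions, lay between 4.16 and 4.88 on all arrays, below the array medians. Its combined knockdown arrays, at 4.88 and 4.86, were above all the others, and the difference of 0.59 from luciferase did not pass (adjusted p = 0.103). The part of these markers in the results for the pathway genes was not tested. In bulk RNA a change in the mixture of cells cannot be told apart from a change in RNA per cell.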

How the data were processed

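RNA of U2OS cells was hybridised to 6 arrays after biotin labelling, per the labels. Deposited values are log2 levels per probe set, made by the authors with oligo, according to the submitters' processing notes. Its version, background correction, summarisation step and genome build were not given in the sources used here. That the scale is log2 was judged from the range of values, 0.687 to 14.0. Array medians were nearly equal, and such a common scale cannot show a change shared by all transcripts. The number of arrays limits the precision.

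Of 33297 probe sets, 19460 had 1 gene symbol in the platform's annotation, 1754 had several and 12083 are unnamed here, and 19429 symbols were looked up by Entrez ID in RefSeq (GRCh38.p14). Each difference was tested in R 4.3.3 by limma 3.58.1 (lmFit and eBayes, all 6 arrays, 1 mean per group, 3 residual and 3.43 prior degrees of freedom), two-sided, with Benjamini-Hochberg adjustment within each of 3 comparisons. The fit was also run on simulated normal data with added differences, where only the mean estimate was held to a limit. No limit was set there on false or missed calls. Class and branch values use the probe set with the highest mean of each gene.

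Members and lists were chosen with earlier results of these data known. Per-array values are given for called members, their other probe sets and the largest difference of a class without a call, and those of further uncalled members were added after their values were seen. Other pathway genes are named where called. The alternatives comprised a fit on only the 4 arrays of a comparison, a replicate block, quantile normalization again, median centring, a filter on low values, 2 other variance priors, and leaving out each array in turn. Figures were drawn with matplotlib 3.10.9.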

Additional observations from a re-analysis of the deposited data

How the results depend on the processing

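Counts of called members are given for the combined knockdown against luciferase, H3.Y siRNA against luciferase, and the combined knockdown against H3.Y siRNA, and were 7, 1 and 10 as reported. They were 6, 1 and 13 with a replicate block, 6, 1 and 9 with quantile normalization again, 6, 2 and 10 with median centring, 6, 2 and 10 with robust eBayes, 8, 3 and 13 with an intensity trend, 9, 5 and 17 without probe sets below the array median on all arrays, and 7, 0 and 4 with only the 4 arrays compared. The share of all probe sets called moved with them, to 2.88%, 0.616% and 5.87% with the trend, 6.73%, 2.03% and 13.3% under the filter, and 1.93%, 0% and 1.35% with only the 4 arrays, beside 1.84%, 0.279% and 4.67% as reported. With the block TGFB2 and TGFB3 lost their calls against luciferase (adjusted p = 0.0584 and 0.0538), BAMBI gained one there (0.0422), and BMP4, BMP5 and FSTL3 gained one between the knockdowns (0.0209, 0.0299 and 0.0497). The 5 after H3.Y siRNA under the filter were SMAD2, TGFBR3, BMPR2, BMP2 and BAMBI. Without 1 array the counts ranged from 0 to 7, from 0 to 8 and from 0 to 10, with fewer residual degrees of freedom, and the share of all probe sets called from 0% to 1.93%, from 0% to 1.89% and from 0.036% to 4.93%. Without either array of the combined knockdown, 0 passed against luciferase and at most 1, PMEPA1, between the knockdowns, and without either luciferase array 0 passed against luciferase. The 7 left without an H3.Y array included 4 of the 7 reported (INHBA, TGFB2, THBS1 and PMEPA1). No difference of a called member changed sign in any of the 13 settings. Over the 18 calls, 16 were kept with the block, 16 with each scaling, 18 with the filter and with the trend, 17 with robust eBayes and 8 with only the 4 arrays. The 10 lost with only the 4 arrays included INHBA, BMPR1B and BMPR2 between the knockdowns (adjusted p = 0.0578, 0.0508 and 0.102) and SMAD2 after H3.Y siRNA (0.112). The filter also added ACVR2A, SKIL, TGFB3 and TGFBR2 between the knockdowns (0.04, 0.0426, 0.0499 and 0.0446), and the trend added TGFBR2 there (0.0464). The labels do not say that replicate numbers mark a shared batch, and differences of replicate 1 from 2 correlated between groups at 0.12 to 0.28, so the block is an alternative only. The cause of these changes was not tested.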
